A study of Mus musculus with 20 samples.

Results

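The genes of the cartilage programme described here are Sox9, Sox5, Sox6, Acan, Col2a1, Col11a2, Col9a1, Hapln1, Matn3 and Chad, which are 10 of the 24885 genes in the deposited count table, taken by gene name. All 10 had enough reads to be tested. They were read in mouse plantaris tendon, in 20 RNA libraries that fall into 5 groups of 4. KO day 7 and KO day 14 mice were ScxCreERT2+/+ IGF1Rflox/flox, WT day 7 and WT day 14 mice were ScxCreERT2-/- IGF1Rflox/flox, and all 4 of these groups had tamoxifen and a growth stimulus of 7 or 14 days. WT day 0 mice were ScxCreERT2-/- IGF1Rflox/flox with neither tamoxifen nor stimulus. The flox alleles of the IGF1 receptor gene were therefore shared by every group, controls included, and the recombinase CreERT2 in KO mice sits at Scx, a gene of tenocytes, so cells that do not express Scx are not targeted. Every comparison with WT day 0 changes the stimulus and tamoxifen together, and no KO group without the stimulus was analysed here. Whether replicates came from separate mice is not stated, and p-values therefore reflect only how far these libraries differ among themselves, which can be technical.

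Cartilage cells are set up by the transcription factor SOX9, which acts with its relatives SOX5 and SOX6 on the genes of the cartilage matrix. That matrix is a network of type II, IX and XI collagen fibrils filled with aggrecan, a large proteoglycan held on hyaluronan by link protein, with matrilins and chondroadherin among the proteins that connect these parts. Tendon is mainly type I collagen, but it holds smaller amounts of several cartilage proteins, above all where it is compressed, and chondroadherin is known from tendon as well as from cartilage.

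Promoter windows are shown for the 3 genes that moved furthest by WT day 7, Acan and Matn3, which rose, and Chad, which fell. Each is the 250 bases before the gene's start in RefSeq on GRCm38.p6, on the plus strand, written 5′ to 3′, for Acan at chr7:79052976-79053225, for Matn3 at chr12:8947679-8947928 and for Chad at chr11:94564797-94565046. Capitals mark TATAAA, searched as written. The letters AACAAT and ACAAAG, which SOX proteins are known to bind, were searched on both strands and do not occur in these windows.
Acan: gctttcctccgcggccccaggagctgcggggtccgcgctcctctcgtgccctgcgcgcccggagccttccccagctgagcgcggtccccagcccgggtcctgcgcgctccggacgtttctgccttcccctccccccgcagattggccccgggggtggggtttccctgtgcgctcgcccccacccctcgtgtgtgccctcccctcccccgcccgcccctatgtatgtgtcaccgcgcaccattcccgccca
Matn3: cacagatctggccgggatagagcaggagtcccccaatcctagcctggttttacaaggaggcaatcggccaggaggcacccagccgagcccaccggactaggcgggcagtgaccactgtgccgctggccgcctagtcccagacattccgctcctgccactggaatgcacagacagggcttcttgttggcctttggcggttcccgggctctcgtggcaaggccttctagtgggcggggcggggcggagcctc
Chad: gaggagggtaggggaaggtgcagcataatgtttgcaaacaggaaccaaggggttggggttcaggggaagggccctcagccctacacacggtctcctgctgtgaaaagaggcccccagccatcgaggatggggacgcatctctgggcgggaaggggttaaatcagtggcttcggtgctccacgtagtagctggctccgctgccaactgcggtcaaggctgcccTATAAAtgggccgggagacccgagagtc

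The Chad window had TATAAA beginning 28 bases before the start, and the Acan and Matn3 windows had none. TATAAA occurs in 7.59% of the 32851 promoter windows of this length, and AACAAT or ACAAAG in 24.0% of them. Entries, 14 in all, were found for 8 of the 10 genes, and 7 of those 8 had neither AACAAT nor ACAAAG in any entry. The remaining gene, Sox6, has several entries and had a match in most of them. This count is by gene and the 24.0% is by window, so they are not compared. Sox9 and Col2a1 are named only. A match or its absence describes the letters of these windows alone.

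Libraries held 32.3 to 63.5 M counts, and levels are given as CPM, CPM being counts scaled to library size after TMM adjustment. Tendon markers were abundant in every group, with a summed level over 11 genes from 32684 to 139010 CPM in single libraries. Igf1r stood at 51.3 ± 2.81 CPM in KO and 49.1 ± 2.17 CPM in WT at day 7 (SD, n = 4 each), and at 53.1 ± 5.0 CPM in KO and 45.3 ± 3.63 CPM in WT at day 14, so its count was not lower in KO. Whether loss of a floxed exon would lower a count per gene was not tested, so the deletion is not checked by this value. Scx stood at 736 ± 281 CPM in KO and 50.5 ± 5.52 CPM in WT at day 7, and at 1249 ± 513 CPM in KO and 114 ± 30.7 CPM in WT at day 14. CreERT2 sits at this gene in KO mice only, and whether that allele changes the Scx count was not tested. Scx lies wholly inside Bop1 on the opposite strand, with 371911 counts for Scx and 147138 for Bop1 over all libraries, and the strand setting of the counting is not given in the sources used here. Among the cartilage genes, KO day 14 replicate 4 and WT day 7 replicate 1 stood apart from their groups, and for many results the value without them is given as well. WT day 14 replicate 4 was also unlike its group. It was the highest for 7 of the cartilage genes, and its tendon markers summed to 139010 CPM, against 55231 to 83070 CPM in the other WT day 14 libraries.

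In WT tendon without the stimulus, the cartilage genes were far from equal. Per kilobase of exon, the mean level was 5138 ± 855 CPM per kb for Chad, 12.1 ± 0.569 for Col11a2, 3.92 ± 0.802 for Sox6, 2.32 ± 0.317 for Sox9, 1.75 ± 0.612 for Col9a1, 1.18 ± 0.317 for Acan and 1.05 ± 0.189 for Sox5 (SD, n = 4). Hapln1 at 0.808 ± 0.281, Col2a1 at 0.273 ± 0.0594 and Matn3 at 0.186 ± 0.0602 CPM per kb were the lowest. The neighbours Sox9 and Col9a1, Col9a1 and Acan, Acan and Sox5, Sox5 and Hapln1, and Col2a1 and Matn3 in this order differed by less than the sum of their SDs. Chad thus dominated the set, while Col2a1, the defining collagen of cartilage, was near the floor, and the cartilage matrilin Matn1 was too low to test, with 1 to 16 counts in each group of 4 libraries. After the stimulus, the mean level of Acan was second to that of Chad, at 89.1 ± 29.3 CPM per kb in KO day 7, 27.2 ± 5.40 in WT day 7, 86.6 ± 46.6 in KO day 14 and 64.8 ± 25.0 in WT day 14. Chad itself stood at 199 ± 82.4 CPM per kb in KO day 7, 129 ± 8.18 in WT day 7, 680 ± 328 in KO day 14 and 646 ± 130 in WT day 14, and in KO day 7 these genes differed by less than the sum of their SDs.

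**Figure D1:**
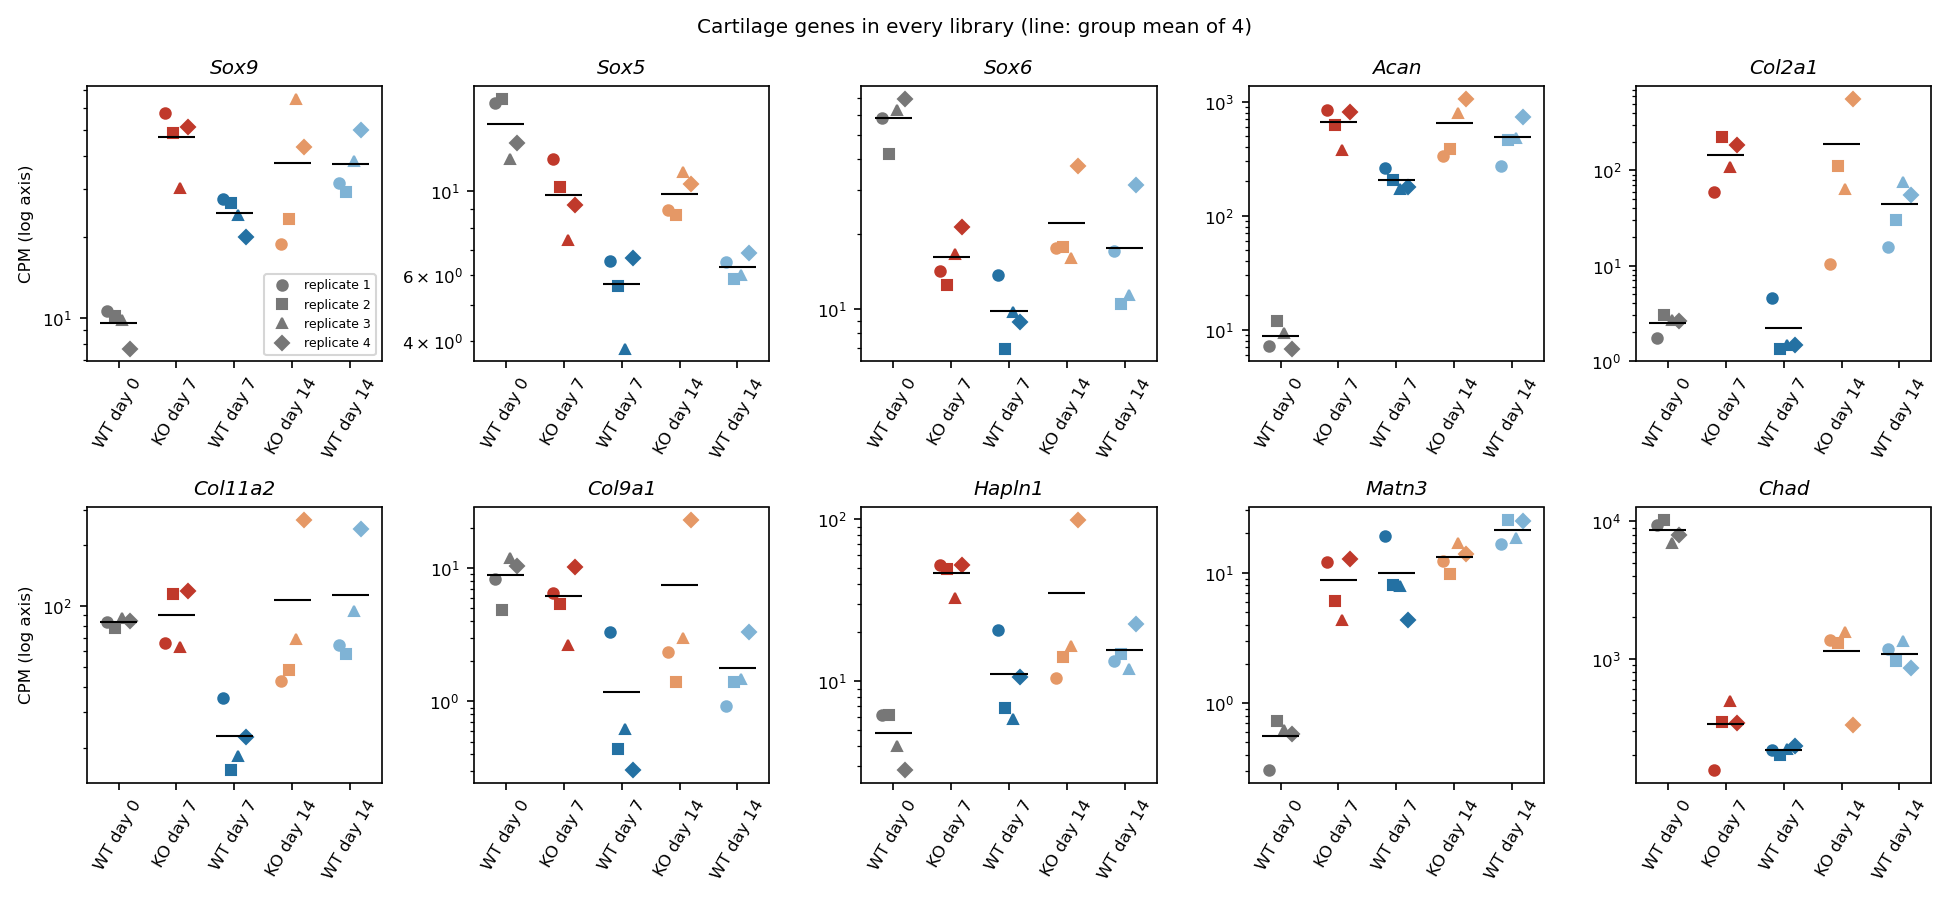
Level of each cartilage gene in every library, in CPM on a log axis, with 4 libraries per group and a black line at the group mean. Acan and Matn3 sit far above WT day 0 in all stimulated libraries and Chad far below it, and Col2a1 spans 10.4 to 568 CPM within KO day 14.

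The first question was how the cartilage genes changed as WT tendon grew. The set did not move one way. Acan, Matn3 and Sox9 rose within 7 days and were still higher at 14 days, Col2a1 and Hapln1 were called higher at 14 days and not at 7 days, Sox5, Sox6, Col9a1 and Chad fell at both days, and Col11a2 was called lower at 7 days and not at 14 days. At WT day 7 against WT day 0, edgeR's quasi-likelihood test at a Benjamini-Hochberg adjusted p below 0.05 called 3 of the 10 genes higher and 5 lower, where 64.1% of all 18918 genes tested were called, 32.3% higher and 31.8% lower. The groups did not overlap for 8 of the 10, against 60.6% of all genes. At WT day 14 against WT day 0, 5 were higher and 4 lower, where 54.3% of all genes were called, 28% higher and 26.2% lower, and 9 did not overlap, against 46.1%. Since most genes tested moved in these comparisons, the counts are not taken as particular to the cartilage genes. The median log2 fold change of the 10 genes was -0.80 at WT day 7 and 1.08 at WT day 14 against WT day 0, beside 0.02 at each day for all genes.

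Sox9 (ENSMUSG00000000567, chr11:112782224-112787760, plus strand, GRCm38), the leading factor of the cartilage lineage, had 10.6, 10.2, 9.83 and 7.68 CPM in the WT day 0 libraries, 27.5, 26.6, 24.1 and 19.9 CPM at WT day 7, and 31.6, 29.2, 38.3 and 50.0 CPM at WT day 14. All stimulated WT libraries were above all those of day 0. Sox9 rose by 1.36 ± 0.31 on the log2 scale at WT day 7 against WT day 0 (SE, n = 4 per group; edgeR adjusted p = 0.00101) and by 1.96 ± 0.32 at WT day 14 (edgeR adjusted p = 5.55e-05). Its partners went the other way. Sox5 (ENSMUSG00000041540, chr6:143828425-144781977, minus strand), which lacks an activation domain of its own and works beside SOX9, had 17.2, 17.6, 12.2 and 13.5 CPM at WT day 0, 6.55, 5.61, 3.82 and 6.65 CPM at WT day 7, and 6.49, 5.85, 6.01 and 6.85 CPM at WT day 14. It fell by 1.42 ± 0.18 on the log2 scale at WT day 7 (edgeR adjusted p = 8.58e-07) and by 1.26 ± 0.18 at WT day 14 (edgeR adjusted p = 6.21e-06).

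Sox6 (ENSMUSG00000051910, chr7:115470872-116038796, minus strand), the close relative of Sox5, also acts in skeletal muscle, where it is known to repress slow fibre genes. Its level was 58.5, 41.8, 62.8 and 69.8 CPM at WT day 0, 13.7, 6.95, 9.79 and 8.86 CPM at WT day 7, and 17.2, 10.5, 11.4 and 31.5 CPM at WT day 14. No stimulated WT library reached the lowest of day 0. The fall was 2.57 ± 0.36 on the log2 scale at WT day 7 (edgeR adjusted p = 8.25e-06) and 1.72 ± 0.35 at WT day 14 (edgeR adjusted p = 0.000497). Most muscle fibre markers fell in the same comparisons, where 31.8% and 26.2% of all genes were called lower. They were 19 of 23 at WT day 7 and 12 of 23 at WT day 14, while 3 and 4 rose. Among those that rose, the slow fibre gene Tnnc1 was higher by 5.09 ± 0.68 on the log2 scale at WT day 7 and 5.30 ± 0.69 at WT day 14, and Tnni1, another slow fibre gene, by 5.89 ± 0.89 at WT day 14 (SE, n = 4 per group; edgeR adjusted p from 6.34e-06 to 3.98e-05). Slow fibre genes were also among those that fell. Myl2 was at -7.66 ± 1.0 on the log2 scale at WT day 7 (edgeR adjusted p = 5.2e-06). Myl3 was at -3.25 ± 0.73 at WT day 14 (edgeR adjusted p = 0.0012). The summed level of the markers over 23 genes, none at 0 in any group, was 29857 to 75225 CPM at WT day 0, 275 to 2120 CPM at WT day 7 and 3272 to 25880 CPM at WT day 14. Within each WT group, the library with the most Sox6 was also the one with the most muscle marker RNA. It was replicate 4 at WT day 0, replicate 1 at WT day 7 and replicate 4 at WT day 14. The part of muscle in the Sox6 result was not tested. In bulk tissue, fewer cells of a type and less RNA per cell cannot be told apart.

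Acan (ENSMUSG00000030607, chr7:79053483-79115099, plus strand), which encodes aggrecan, showed the largest rise of the 10 genes at both days. It had 7.18, 11.9, 9.39 and 6.81 CPM at WT day 0, 259, 206, 172 and 177 CPM at WT day 7, and 274, 458, 478 and 728 CPM at WT day 14. Each WT group lay wholly above the one before it. The rise was 4.52 ± 0.42 on the log2 scale at WT day 7 against WT day 0 (edgeR adjusted p = 6.54e-08) and 5.77 ± 0.44 at WT day 14 (edgeR adjusted p = 1.65e-08), a 54.6-fold rise. Hapln1 (ENSMUSG00000021613, chr13:89539796-89611652, plus strand) encodes the link protein that fixes aggrecan to hyaluronan. It had 6.15, 6.15, 3.96 and 2.82 CPM at WT day 0, 20.8, 6.86, 5.83 and 10.6 CPM at WT day 7, and 13.4, 14.7, 11.8 and 22.6 CPM at WT day 14. The day 14 libraries all lay above those of day 0, while WT day 7 overlapped WT day 0, with replicate 1 far above the rest. Its log2 fold change was 1.21 ± 0.62 at WT day 7 (edgeR adjusted p = 0.101), or 0.70 without that library (edgeR adjusted p = 0.357), and 1.71 ± 0.63 at WT day 14 (edgeR adjusted p = 0.0305). The day 14 call was lost without WT day 0 replicate 3 or 4 or WT day 14 replicate 4 (edgeR adjusted p from 0.0716 to 0.0843).

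The cartilage collagens differed among themselves. Col2a1 (ENSMUSG00000022483, chr15:97975602-98004695, minus strand), the chain of type II collagen, had 1.74, 3.03, 2.69 and 2.65 CPM at WT day 0, 4.62, 1.34, 1.45 and 1.48 CPM at WT day 7, and 15.5, 30.3, 76.3 and 54.6 CPM at WT day 14. It stayed near the floor for the first week and every day 14 library was above all earlier ones. The log2 fold change was -0.18 ± 0.94 at WT day 7 against WT day 0 (edgeR adjusted p = 0.878), or -0.84 without WT day 7 replicate 1 (edgeR adjusted p = 0.51). It was 4.11 ± 0.96 at WT day 14 against WT day 0 (edgeR adjusted p = 0.00187) and 4.29 ± 0.96 at WT day 14 against WT day 7 (edgeR adjusted p = 0.00324), or 4.96 without that library.

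Col11a2 (ENSMUSG00000024330, chr17:34039437-34066685, plus strand), a chain of type XI collagen that nucleates the fibril, was lower at WT day 7 and overlapped day 0 again at WT day 14. It had 83.6, 78.0, 87.3 and 84.6 CPM at WT day 0, 35.1, 15.5, 18.3 and 22.6 CPM at WT day 7, and 64.5, 57.8, 94.5 and 240 CPM at WT day 14. The log2 fold change was -1.87 ± 0.57 at WT day 7 against WT day 0 (edgeR adjusted p = 0.00898) and 0.45 ± 0.55 at WT day 14 against WT day 0 (edgeR adjusted p = 0.51). Against WT day 7 it rose by 2.32 ± 0.58 at WT day 14 (edgeR adjusted p = 0.00651), or by 1.66 without WT day 14 replicate 4 (edgeR adjusted p = 0.0283). Col9a1 (ENSMUSG00000026147, chr1:24177610-24252684, plus strand), a chain of the type IX collagen that coats cartilage fibrils, had 8.26, 4.83, 12.0 and 10.4 CPM at WT day 0, 3.30, 0.44, 0.62 and 0.30 CPM at WT day 7, and 0.92, 1.40, 1.48 and 3.32 CPM at WT day 14. All stimulated WT libraries were below those of day 0. The log2 fold change was -2.90 ± 0.89 at WT day 7 (edgeR adjusted p = 0.0096), or -4.27 without WT day 7 replicate 1 (edgeR adjusted p = 0.00122), and -2.32 ± 0.88 at WT day 14 (edgeR adjusted p = 0.0345). The day 14 call was lost on leaving out any 1 of WT day 0 replicates 1, 3 and 4 or WT day 14 replicates 1, 2 and 3 (edgeR adjusted p from 0.0504 to 0.0869).

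Matn3 (ENSMUSG00000020583, chr12:8947929-8972028, plus strand), a matrilin that links collagen fibrils to proteoglycans, was nearly absent before the stimulus and rose with Acan. It had 0.31, 0.73, 0.62 and 0.58 CPM at WT day 0, 19.2, 7.98, 7.92 and 4.33 CPM at WT day 7, and 16.6, 25.3, 18.5 and 25.0 CPM at WT day 14. The lowest stimulated WT library was above the highest of day 0. Matn3 rose by 4.09 ± 0.47 on the log2 scale at WT day 7 against WT day 0 (edgeR adjusted p = 8.62e-07) and by 5.20 ± 0.49 at WT day 14 (edgeR adjusted p = 1.39e-07).

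Chad (ENSMUSG00000039084, chr11:94565047-94569127, plus strand), the small leucine-rich protein chondroadherin that binds collagen and integrins, made the opposite move on a much larger scale. It had 9382, 10207, 7000 and 7942 CPM at WT day 0, 217, 199, 220 and 233 CPM at WT day 7, and 1172, 969, 1346 and 852 CPM at WT day 14. The 3 WT groups did not overlap at all. Chad was 39.7-fold lower at WT day 7 than at WT day 0, a log2 fold change of -5.31 ± 0.43 (edgeR adjusted p = 7.88e-09), and 7.96-fold lower at WT day 14 (-2.99 ± 0.38; edgeR adjusted p = 3.97e-06). Chad lies wholly inside Acsf2 on the opposite strand, with 2069483 counts for Chad and 8912 for Acsf2 over all libraries.

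From day 7 to day 14 the called changes in WT tendon all went up. Acan, Col2a1, Col11a2, Matn3 and Chad were called higher at WT day 14 than at WT day 7, 5 of the 10, where 30.4% of all genes were called, 16% higher and 14.4% lower, and none of the 10 was called lower. The groups did not overlap for 5 of the 10, Sox9, Acan, Col2a1, Col11a2 and Chad, against 25.6% of all genes. Chad rose by 2.32 ± 0.37 on the log2 scale (edgeR adjusted p = 0.000198) and Acan by 1.25 ± 0.37 (edgeR adjusted p = 0.0156). Sox9 differed by 0.60 ± 0.30 (edgeR adjusted p = 0.146). The Acan call was lost without WT day 14 replicate 4 (edgeR adjusted p = 0.0582), as was that of Matn3, which left 3 calls. The rise of Matn3, 1.11 ± 0.39 (edgeR adjusted p = 0.0382), was lost without any 1 of WT day 7 replicates 2, 3 and 4 or WT day 14 replicates 2, 3 and 4 (edgeR adjusted p from 0.0521 to 0.0978). Sox6, at 0.84 ± 0.35 (edgeR adjusted p = 0.076), gained a call without WT day 7 replicate 1 or WT day 14 replicate 2 (edgeR adjusted p = 0.0448 and 0.0385). Muscle fibre markers rose in the same comparison in 19 of 23 cases, and WT day 14 replicate 4 had the highest sum of its group, 25880 CPM; their part in these results was not tested.

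**Figure D2:**
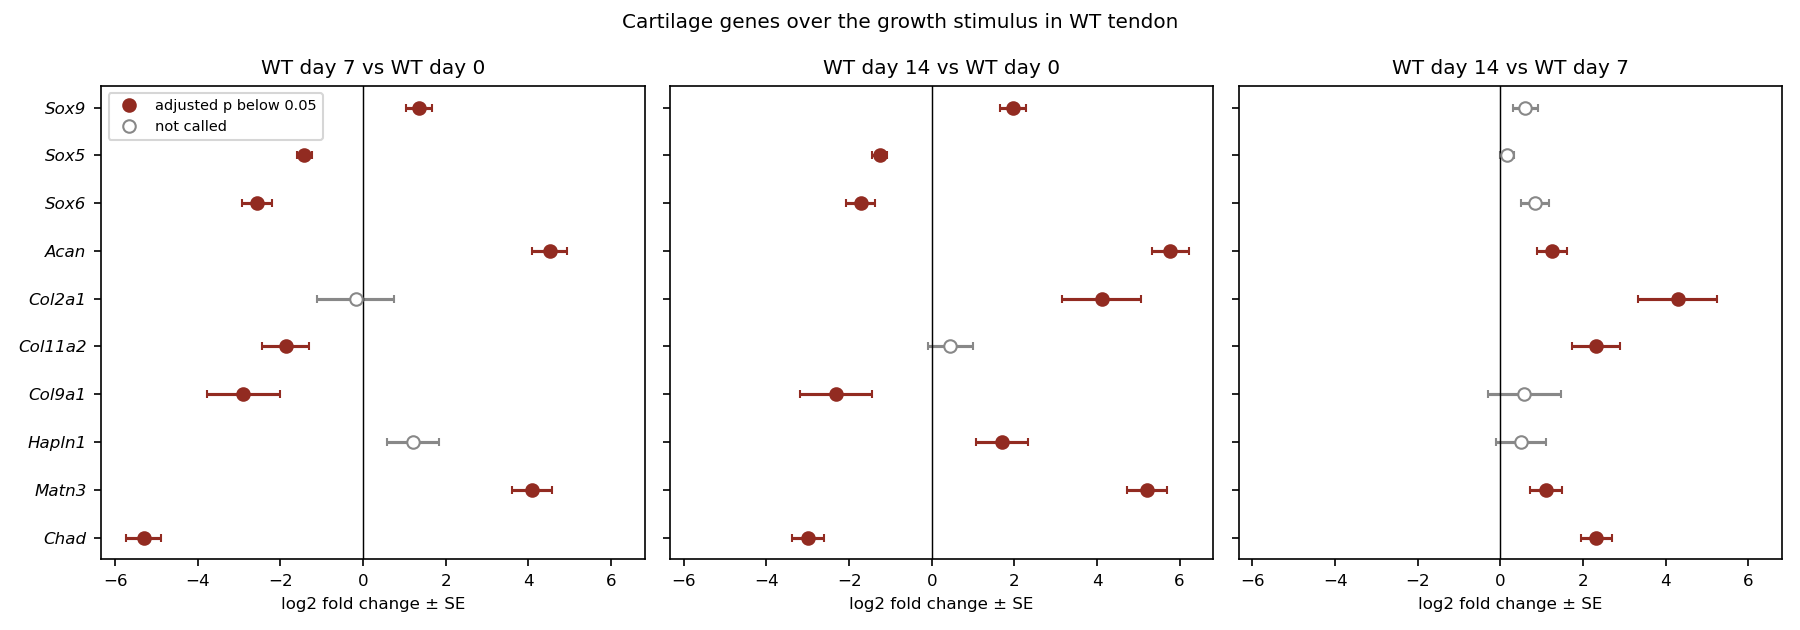
Log2 fold change with its SE for each cartilage gene in the 3 WT comparisons, filled where edgeR's adjusted p was below 0.05. Sox9, Acan and Matn3 lie right of 0 and Sox5, Sox6, Col9a1 and Chad left of it against day 0, while all filled points of WT day 14 against WT day 7 lie right of 0.

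The second question was how KO and WT tendon differed at the same day. These groups differ in the CreERT2 alleles at Scx as well as in the targeting of Igf1r, and the effects of each cannot be told apart. Without a KO group lacking the stimulus, a changed response cannot be told apart from a difference present before it. At day 7, Col2a1, Hapln1, Col11a2, Acan, Sox9 and Sox5 were called higher in KO than in WT tendon, and none of the 10 genes was called lower. These 6 of 10 stand beside 14.8% of all genes called in either direction, 9.39% higher and 5.42% lower. The groups did not overlap for 6 of the 10, against 24.4% of all genes. The median log2 fold change of the 10 was 1.32, beside -0.01 for all genes. Sox6, Col9a1, Matn3 and Chad did not pass, with edgeR adjusted p from 0.079 to 0.821.

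Col2a1 separated the genotypes most. Its level was 59.4, 223, 108 and 183 CPM in the KO day 7 libraries, against 4.62, 1.34, 1.45 and 1.48 CPM in the WT day 7 libraries. The lowest KO library was above the highest WT one by far. The difference was 63.5-fold, a log2 fold change of 5.99 ± 1.03 (SE, n = 4 per group; edgeR adjusted p = 0.00174), or 6.66 without WT day 7 replicate 1 (edgeR adjusted p = 0.00388). The KO level had already passed the 15.5 to 76.3 CPM that WT tendon had a week later in 3 of 4 libraries.

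The proteoglycan pair moved with it. Acan had 847, 624, 373 and 818 CPM in KO day 7 libraries, against 259, 206, 172 and 177 CPM in WT day 7 libraries. Acan was higher in KO by 1.71 ± 0.37 on the log2 scale (edgeR adjusted p = 0.00676). Hapln1 had 52.0, 49.5, 32.6 and 52.0 CPM in KO day 7 libraries, against 20.8, 6.86, 5.83 and 10.6 CPM in WT day 7 libraries. Neither gene's groups overlapped. Hapln1 was higher by 2.08 ± 0.62 on the log2 scale (edgeR adjusted p = 0.0345), a call lost on leaving out any 1 of KO day 7 replicates 1, 2 and 4 or WT day 7 replicates 2, 3 and 4 (edgeR adjusted p from 0.058 to 0.101).

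Among the other collagens, Col11a2 had 65.8, 115, 63.0 and 119 CPM in KO day 7 libraries, against 35.1, 15.5, 18.3 and 22.6 CPM in WT day 7 libraries, with no overlap. The log2 fold change was 1.99 ± 0.57 (edgeR adjusted p = 0.0297), and the call was lost on leaving out any 1 of KO day 7 replicates 2 and 4 or WT day 7 replicates 2, 3 and 4 (edgeR adjusted p from 0.0641 to 0.0888). Col9a1 had 6.56, 5.34, 2.67 and 10.1 CPM in KO day 7 libraries, against 3.30, 0.44, 0.62 and 0.30 CPM in WT day 7 libraries. Only WT replicate 1 reached into the KO range. The difference was 2.38 ± 0.88 on the log2 scale (edgeR adjusted p = 0.079), and without that library it was 3.76 and called (edgeR adjusted p = 0.0209).

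The factor genes differed less. Sox9 had 57.5, 48.6, 30.4 and 51.0 CPM in KO day 7 libraries, against 27.5, 26.6, 24.1 and 19.9 CPM in WT day 7 libraries, so the groups did not overlap. Its log2 fold change of 0.93 ± 0.30 was just past the threshold (edgeR adjusted p = 0.0478). That call was lost with upper-quartile scaling, without the filter on low counts and on leaving out any 1 library of these groups other than KO day 7 replicate 3 (edgeR adjusted p from 0.0682 to 0.109 over those 7 libraries). Sox5 had 12.2, 10.3, 7.41 and 9.21 CPM in KO day 7 libraries, against 6.55, 5.61, 3.82 and 6.65 CPM in WT day 7 libraries, a difference of 0.79 ± 0.17 on the log2 scale (edgeR adjusted p = 0.0062). Sox5 did not overlap and kept its call whichever of these 8 libraries was left out. Sox6 had 14.2, 12.5, 16.6 and 21.3 CPM in KO day 7 libraries, against 13.7, 6.95, 9.79 and 8.86 CPM in WT day 7 libraries, a difference of 0.72 ± 0.34 that was not called (edgeR adjusted p = 0.171). KO day 7 replicate 4 and WT day 7 replicate 1, highest of their groups for Sox6, were also highest for summed muscle marker RNA. The part of muscle in the Sox6 level was not tested.

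Matn3 and Chad, which had moved strongly with the stimulus, were not called by genotype. Matn3 had 12.1, 6.06, 4.31 and 12.8 CPM in KO day 7 libraries, against 19.2, 7.98, 7.92 and 4.33 CPM in WT day 7 libraries, a difference of -0.16 ± 0.39 on the log2 scale (edgeR adjusted p = 0.821), or 0.39 without WT day 7 replicate 1 (edgeR adjusted p = 0.479). Chad had 154, 348, 492 and 344 CPM in KO day 7 libraries, against 217, 199, 220 and 233 CPM in WT day 7 libraries, a difference of 0.62 ± 0.36 (edgeR adjusted p = 0.251). Both pairs of groups overlapped. KO replicate 1 lay below every WT library for Chad and the other 3 KO libraries above them all.

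Without 1 library, the count of called genes at day 7 was 3 of 10, Sox5, Acan and Col2a1, when that library was KO day 7 replicate 2 or 4 or WT day 7 replicate 2, 3 or 4. Markers of other tissues moved in the same comparison, where 9.39% of all genes were called higher. Muscle fibre markers summed to 5776 to 14223 CPM in KO day 7 and 275 to 2120 CPM in WT day 7, and 15 of 23 rose. Of 7 bone cell markers tested, 2 rose and none fell, among them Ibsp by 3.98 ± 0.84 on the log2 scale (edgeR adjusted p = 0.0062), while the summed level was 637 to 1684 CPM in KO day 7 and 751 to 984 CPM in WT day 7. The bone-defining Bglap had 10 counts in all 4 KO day 7 libraries together and 13 in those of WT day 7, and Bglap2, Sost, Mepe and Calcr were also too low to test. Col10a1 and Ihh, of hypertrophic cartilage, averaged 0.819 ± 0.777 and 0.166 ± 0.0903 CPM in KO day 7 and 0.109 ± 0.0645 and 0.206 ± 0.111 CPM in WT day 7 (SD, n = 4 each). Of 11 tendon cell markers 6 rose and none fell. Scx was among the 6, but it is the site of CreERT2 in KO mice, and the effect of that allele on its count was not tested. The summed levels of the 11 markers were 82723 to 102730 CPM in KO day 7 and 44140 to 55215 CPM in WT day 7. The part of these tissues in the cartilage result was not tested.

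**Figure D3:**
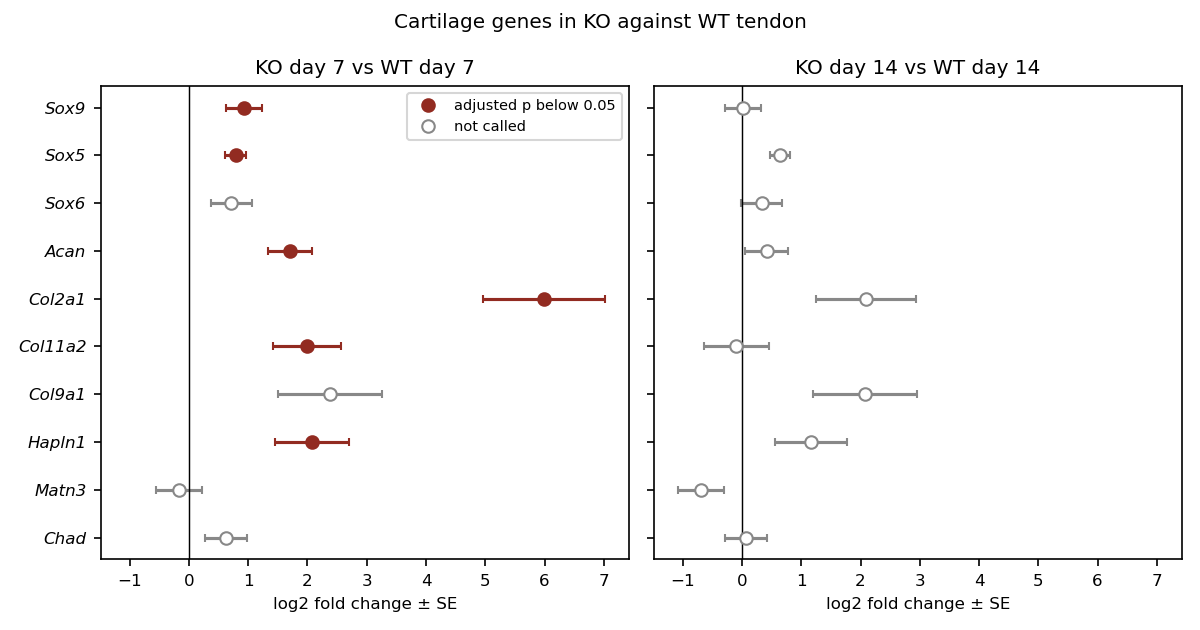
Log2 fold change with its SE for each cartilage gene in KO against WT tendon at day 7 and at day 14, filled where edgeR's adjusted p was below 0.05. At day 7, 6 genes are filled and right of 0, with Col2a1 at 5.99, and at day 14 no gene is filled.

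At day 14 no cartilage gene was called between KO and WT, where 1.78% of all genes were called, 1.06% higher and 0.719% lower. At an unadjusted p under 0.05 there were 3, Sox5, Col2a1 and Col9a1, beside 16.7% of all genes; DESeq2 called 1, Sox5 (adjusted p = 0.0153), and limma-voom 0. Only Sox5 did not overlap, 1 of 10 against 6.13% of all genes. It had 8.95, 8.68, 11.3 and 10.5 CPM in KO day 14 libraries, against 6.49, 5.85, 6.01 and 6.85 CPM in WT day 14 libraries. The difference of 0.64 ± 0.17 on the log2 scale had an edgeR adjusted p of 0.0657, and without WT day 14 replicate 4 it was called (edgeR adjusted p = 0.0338).

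For Col2a1, Hapln1 and Col9a1, the KO libraries at day 14 were spread far more widely than their difference from WT. Col2a1 had 10.4, 110, 63.6 and 568 CPM in KO day 14 libraries, against 15.5, 30.3, 76.3 and 54.6 CPM in WT day 14 libraries. Its log2 fold change of 2.09 ± 0.85 (edgeR adjusted p = 0.221) dropped to 0.47 without KO day 14 replicate 4. Hapln1 had 10.4, 14.2, 16.5 and 99.0 CPM in KO day 14 libraries, against 13.4, 14.7, 11.8 and 22.6 CPM in WT day 14 libraries, and its difference was 1.17 ± 0.60 (edgeR adjusted p = 0.352) with that library and -0.19 without it. Col9a1 had 2.34, 1.39, 3.0 and 23.0 CPM in KO day 14 libraries, against 0.92, 1.40, 1.48 and 3.32 CPM in WT day 14 libraries, with a difference of 2.07 ± 0.87 (edgeR adjusted p = 0.242) with it and 0.34 without it. For each of these 3 genes KO replicate 4 was by far the highest of the 8 libraries.

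Acan had 336, 385, 802 and 1064 CPM in KO day 14 libraries, against 274, 458, 478 and 728 CPM in WT day 14 libraries, and differed by 0.42 ± 0.36 on the log2 scale (edgeR adjusted p = 0.61), or by 0.068 without KO day 14 replicate 4. Sox9 had 18.9, 23.4, 65.3 and 43.0 CPM in KO day 14 libraries, against 31.6, 29.2, 38.3 and 50.0 CPM in WT day 14 libraries, and differed by 0.01 ± 0.30 (edgeR adjusted p = 0.987). For both genes KO replicates 3 and 4 were high and replicates 1 and 2 low. Col11a2 had 42.7, 48.5, 69.1 and 266 CPM in KO day 14 libraries, against 64.5, 57.8, 94.5 and 240 CPM in WT day 14 libraries, so replicate 4 was the highest in each genotype. Its difference was -0.10 ± 0.55 (edgeR adjusted p = 0.954), -1.09 without KO day 14 replicate 4 (edgeR adjusted p = 0.205) and 0.56 without WT day 14 replicate 4 (edgeR adjusted p = 0.561).

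Sox6 had 17.6, 17.7, 16.0 and 37.5 CPM in KO day 14 libraries, against 17.2, 10.5, 11.4 and 31.5 CPM in WT day 14 libraries, again with replicate 4 highest in each. Muscle marker RNA was highest in the same libraries, at 29616 CPM in KO day 14 replicate 4 and 25880 CPM in WT day 14 replicate 4. Its part in the Sox6 level was not tested. Matn3 had 12.4, 9.78, 17.0 and 13.9 CPM in KO day 14 libraries, against 16.6, 25.3, 18.5 and 25.0 CPM in WT day 14 libraries, and differed by -0.69 ± 0.39 on the log2 scale (edgeR adjusted p = 0.394). The overlap there was a single KO library, replicate 3, above the lowest WT one. Chad had 1379, 1304, 1553 and 332 CPM in KO day 14 libraries, against 1172, 969, 1346 and 852 CPM in WT day 14 libraries, and differed by 0.07 ± 0.35 (edgeR adjusted p = 0.944), or by 0.38 without KO day 14 replicate 4 (edgeR adjusted p = 0.453). Replicate 4, highest for 6 of the cartilage genes in KO day 14, was the lowest for Chad.

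Between day 14 and day 7 in KO tendon, Chad was the 1 gene called of 10, where 15.7% of all genes were called, 7.09% higher and 8.57% lower. It was higher at KO day 14 by 1.77 ± 0.37 on the log2 scale (edgeR adjusted p = 0.00383), although KO day 14 replicate 4, at 332 CPM, lay within the KO day 7 range. That call was lost when the fit held only the groups compared (edgeR adjusted p = 0.0653). No gene had groups without overlap, against 20.6% of all genes. Without KO day 14 replicate 4, Hapln1 was also called, with a log2 fold change of -1.76 (edgeR adjusted p = 0.00841), beside -0.41 ± 0.59 with it (edgeR adjusted p = 0.694). Col2a1 differed by 0.39 ± 0.81 between KO day 14 and KO day 7 (edgeR adjusted p = 0.791), and by -1.22 without that library (edgeR adjusted p = 0.263).

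Whether the genotype effect itself differed between day 14 and day 7 was tested as an interaction. None of the 10 genes was called by edgeR, where 0% of all genes were called. At an unadjusted p under 0.05 there were 4 (Sox9, Acan, Col2a1 and Col11a2), all negative, beside 10.8% of all genes; DESeq2 called 1, Col2a1 (adjusted p = 0.04995), and limma-voom 0. The genotype effect at day 14 minus that at day 7 was -3.90 ± 1.23 on the log2 scale for Col2a1 (edgeR adjusted p = 0.284) and -1.29 ± 0.51 for Acan (edgeR adjusted p = 0.379). Without KO day 14 replicate 4 it was -5.52 for Col2a1 (edgeR adjusted p = 0.0915) and -1.64 for Acan (edgeR adjusted p = 0.232). The calls at day 7 and their absence at day 14 thus do not show that the effects differed.

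The spread between libraries was large for several of these genes. The biological coefficient of variation in edgeR's fit was 0.787 for Col9a1, 0.767 for Col2a1, 0.568 for Hapln1 and 0.523 for Col11a2, beside a median of 0.166 over all genes tested, which puts these 4 at or above percentile 94.3. Sox5 was the steadiest, at 0.179 and percentile 54.0. As a coefficient of variation of CPM in KO day 14, Col9a1 had 140%, Col2a1 137%, Hapln1 122% and Col11a2 100%, where the median gene of that group had 15.3%. Without replicate 4 these values were 36.0% for Col9a1, 81.3% for Col2a1, 22.5% for Hapln1 and 26.0% for Col11a2, beside a median of 13.1%. In WT day 0 the 10 genes ranged from 4.69% for Col11a2 to 34.9% for Col9a1, beside a median of 12.4%. In WT day 14, Col11a2 had 74.7%, and 27.0% without replicate 4.

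**Figure D4:**
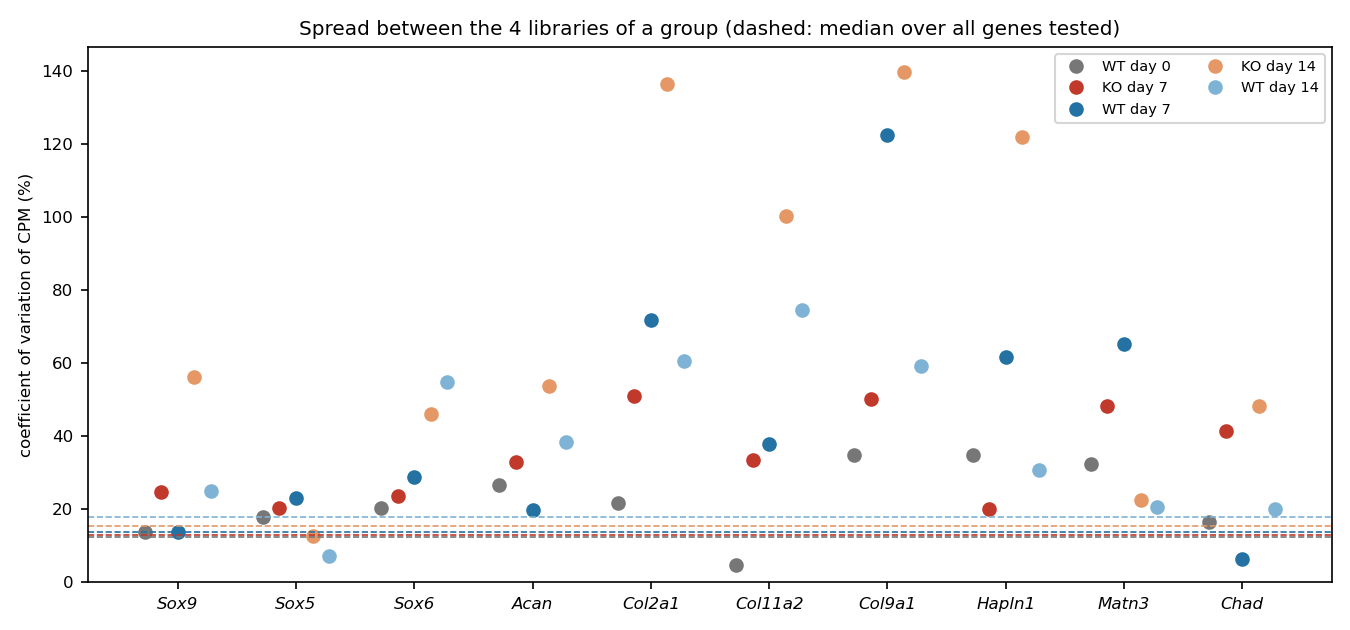
Coefficient of variation of CPM over the 4 libraries of each group, in percent, for each cartilage gene, with dashed lines at the median over all genes tested in each group. Col9a1, Col2a1, Hapln1 and Col11a2 reach 140%, 137%, 122% and 100% in KO day 14, against 36.0%, 81.3%, 22.5% and 26.0% without replicate 4 (not drawn), and Sox5 stays at 23.2% or below in all groups.

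The genes that varied tended to vary in the same libraries. WT day 7 replicate 1 was the highest of its group for 8 of the 10 genes, all but Sox5 and Chad. KO day 7 replicate 3 was the lowest of its group for 7 and the highest for Chad. WT day 14 replicate 4 was the highest for 7 and the lowest for Chad, and KO day 14 replicate 4 was the highest for 6 and the lowest for Chad. In KO day 14 replicate 4 the log2 level exceeded its group mean by 2.83 for Col2a1, 2.57 for Col9a1, 2.16 for Hapln1 and 1.76 for Col11a2. Of 18 further cartilage matrix genes tested, that library was the highest of its group for 9 and the lowest for 5. Among the 9 were Cnmd, at 6.12 CPM, and Col9a3, at 23.9 CPM, against at most 0.505 and 4.53 CPM in the other KO day 14 libraries. Among the 5 was Matn4, at 35.0 CPM, against 61.1 to 99.2 CPM in the others.

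**Figure D5:**
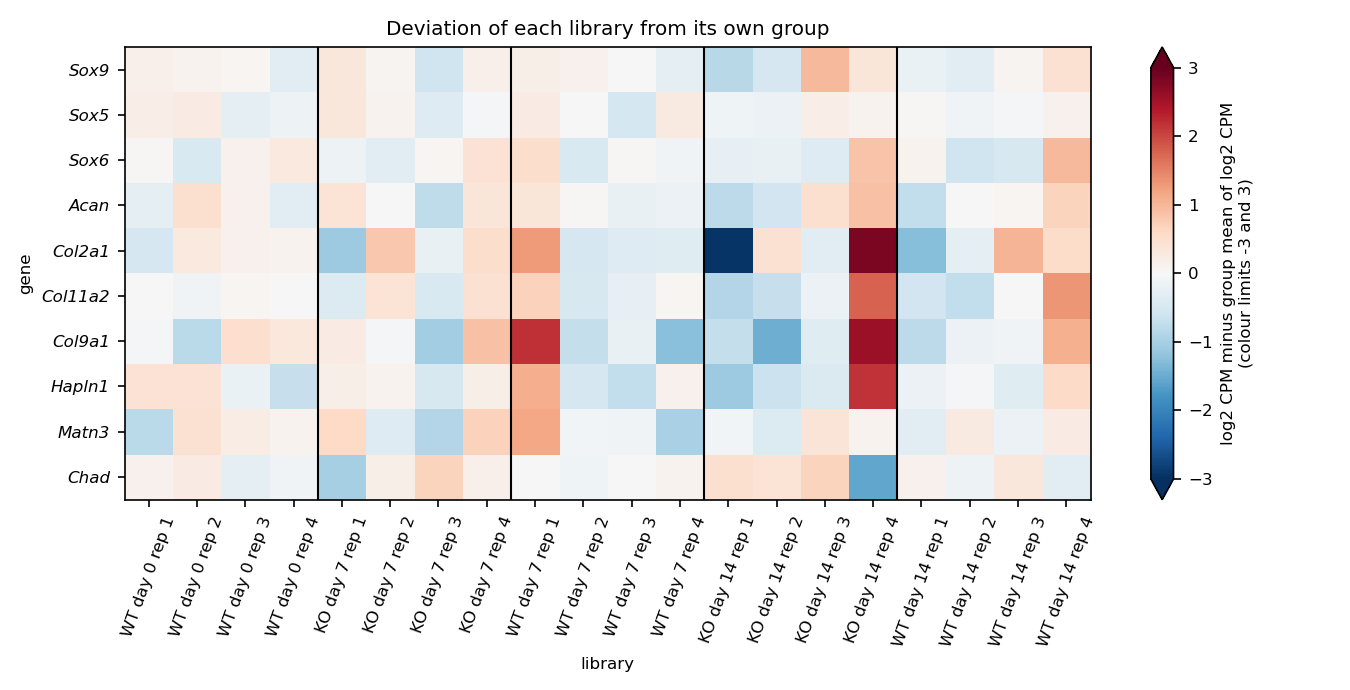
Log2 CPM of each library minus the mean of its own group, for 10 genes in rows and 20 libraries in columns, with red above and blue below the group mean. KO day 14 replicate 4 is red for 9 genes and blue for Chad, and WT day 7 replicate 1 is red for most genes.

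The genes nearest in pattern to each cartilage gene were taken as those with the smallest root mean square difference of mean-centred log2 CPM over the 20 libraries, out of 13248 genes. The nearest to Acan was Tnn, which encodes tenascin-W, at 0.347 on the log2 scale, where Acan's own spread around its mean was 2.37. Tnn had 555 ± 191 CPM in KO day 7 and 171 ± 48.3 CPM in WT day 7 (SD, n = 4 each). The nearest to Hapln1 were Scrg1, at 0.453, and Col9a3, another type IX collagen chain, at 0.518. The nearest to Sox9 was the fibrillar collagen gene Col27a1, at 0.333, and to Matn3 the short-chain collagen gene Col8a1, at 0.531. Sox6 lay closest to Ppm1l, at 0.237, and Mef2c, a factor of muscle as well as of cartilage, at 0.245. Chad lay closest to Galnt15, at 0.483, and Sox5 to Dixdc1, at 0.272. For Col2a1 even the nearest, Scx and Col9a2, lay 1.55 away, and for Col9a1 and Col11a2 the nearest were Frzb, at 0.935, and Tmem117, at 0.616. Scx carries CreERT2 in KO mice, and the effect of that allele on its count was not tested. All these values share the same libraries and group means.

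Other genes of cartilage matrix followed the cartilage set in part, but their list is not particular to cartilage. In WT day 0 tendon the 18 genes tested already summed to 26108 to 33635 CPM, with Prg4 at 4259 ± 430 CPM (SD, n = 4). Of 18 further cartilage matrix genes tested, 10 rose and 0 fell in KO day 7 against WT day 7, where 9.39% of all genes were called higher, with a median log2 fold change of 1.20 beside -0.01 for all genes. In the same comparison 6 of 11 tendon cell markers and 15 of 23 muscle fibre markers rose, so a rise was not particular to cartilage genes. Susd5, a membrane protein with a hyaluronan-binding link domain, rose by 4.50 ± 0.51, the lectin Clec3a by 2.36 ± 0.36, and the leucine-rich proteoglycans Prelp and Fmod by 1.24 ± 0.20 and 1.01 ± 0.17 (SE, n = 4 per group; edgeR adjusted p from 4.66e-05 to 0.00111). At day 14 2 rose, where 1.06% of all genes were called higher. Prg4, the lubricin gene, rose by 1.17 ± 0.28 and Susd5 by 1.84 ± 0.45 (edgeR adjusted p = 0.0417 and 0.0483). In WT day 7 against WT day 0, 3 rose and 8 fell, where 64.1% of all genes were called, with Clec3a at -4.54 ± 0.39 and Prelp at -2.35 ± 0.20. In WT day 14 against WT day 0, 7 rose and 7 fell, where 54.3% of all genes were called. Matn4, a relative of Matn3, was at 4.37 ± 0.52 and the type XI chain Col11a1 at 2.79 ± 0.26. In WT day 14 against WT day 7, 9 rose and 1 fell, where 16% of all genes were called higher and 14.4% lower.

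Of 16 further regulators of cartilage, 6 rose and 0 fell in KO day 7 against WT day 7, where 9.39% of all genes were called higher, with a median of 0.46. The receptor gene Fgfr3 rose by 1.22 ± 0.14, the joint factor Gdf5 by 1.23 ± 0.20, Nkx3-2 by 1.47 ± 0.30 and Sox8, a relative of Sox9, by 1.43 ± 0.33 (edgeR adjusted p from 3.26e-05 to 0.00868). None passed at day 14. Against WT day 0, 4 rose and 6 fell at WT day 7 and 4 rose and 4 fell at WT day 14. Of all genes, 64.1% and 54.3% were called in these comparisons, so the counts are not particular to this list. Hif1a, a factor of the hypoxia response, was at 2.17 ± 0.13 and 1.98 ± 0.13 and Bmp2 at -2.92 ± 0.27 and -3.24 ± 0.28.

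Genes that build chondroitin sulphate chains, which are not particular to aggrecan, moved as well. Of 18 chondroitin sulphate genes, 10 rose and 5 fell at WT day 7 and 12 rose and 5 fell at WT day 14 against WT day 0. Of all genes, 64.1% and 54.3% were called at these days, 32.3% and 28% higher and 31.8% and 26.2% lower. Csgalnact1, which starts the chain, rose by 3.24 ± 0.17 and 3.07 ± 0.17 at these days, and Chsy1, which extends it, by 1.58 ± 0.14 and 1.67 ± 0.14. In KO day 7 against WT day 7, 6 rose and 1 fell, where 9.39% of all genes were called higher and 5.42% lower. Chpf, a polymerising factor, was at 0.68 ± 0.13 and the sulphotransferase Chst3 at 0.998 ± 0.197. In KO day 14 against WT day 14 Csgalnact1 was lower, at -0.69 ± 0.15 (edgeR adjusted p = 0.0252) and none rose, where 1.78% of all genes were called. Of 10 hypertrophic cartilage genes, 2 rose and 5 fell at WT day 7 and 2 rose and 4 fell at WT day 14 against WT day 0, where 64.1% and 54.3% of all genes were called. The collagenase gene Mmp13 was among those that rose, by 5.37 ± 0.78 and 7.52 ± 0.84. Pth1r, the parathyroid hormone receptor gene, was the 1 of the 10 that rose in KO day 7 against WT day 7, by 0.48 ± 0.11, and none passed at day 14.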

How the data were processed

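RNA of 20 plantaris tendon samples was sequenced. The authors deposited raw counts per gene, whole numbers for 24885 genes, none with fewer than 21 counts over all libraries. Per the submitters' processing notes, FastQC, STAR and edgeR were used and the build was mm10. Which tool counted reads, with what annotation and strand setting, is not given in the sources used here. The authors also deposited their own comparisons, with log2 fold changes and p-values per the file headers; these entered no test.

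Groups and replicate numbers came from sample titles. edgeR 4.0.16 in R 4.3.3 was run on the counts: filterByExpr defaults left 18918 genes, libraries were scaled with TMM, and all 20 libraries entered a robust quasi-likelihood fit that gives each group its mean. Calls used a Benjamini-Hochberg adjusted p below 0.05 over all genes tested. SEs are the log2 fold change divided by the square root of F. Log2 CPM used a prior count of 2, and levels per kilobase used exon lengths of the GENCODE annotation of GRCm38, the build of all gene coordinates. The fit was tested on simulated data with known changes. No 2 libraries of a group were duplicates (smallest chi-square per degree of freedom 15.4). As alternatives, the scaling was RLE or upper-quartile, genes were unfiltered or kept at 1 CPM in 4 libraries, and the other settings were DESeq2 1.42.0, limma-voom (limma 3.58.1), only the groups compared, the replicate number as a block, and leaving out each library.

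The members and the 10 other gene lists were chosen with earlier results of these data known. Named were all 10 members, Igf1r and Scx, up to 4 genes per list and comparison with the smallest adjusted p among those that passed (up to 2 where none passed), with not all of them printed, and, of the 3 genes nearest in pattern to each member, the first or the first and second. Col9a3, Cnmd, Col10a1, Ihh, Bglap, Matn1, Acsf2 and the levels of Tnn, Prg4, Hapln4 and Bcan were picked out with their values known. The value of 1 bone cell marker is not reported here. Proliferation and macrophage markers were read as further lists. In KO against WT at day 7, where 5.42% of all genes were called lower, 1 of 12 genes of each fell and none rose, and none passed at day 14. Of 9 other lecticans, link proteins and aggrecan-cleaving enzymes, 1 fell at each of these days and none rose.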

Additional observations from a re-analysis of the deposited data

Results flagged for a closer look

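Single libraries that lay far from the rest of their group of 4 were found in 7 of 50 combinations of gene and group, by Dixon's test of the gap to the nearest library over the whole range of the group. For independent and normally distributed values chance gives about 1 in 20. The genes share the same libraries, so the 7 of 50 cannot be read against that rate. KO day 14 replicate 4 was the high one for 4 genes, Sox6 at 37.5 CPM, Col11a2 at 266 CPM, Col9a1 at 23.0 CPM and Hapln1 at 99.0 CPM. WT day 7 replicate 1 was the high one for Col2a1, at 4.62 CPM, and Col9a1, at 3.30 CPM. KO day 7 replicate 3 was the low one for Hapln1, at 32.6 CPM.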

How the results depend on the processing

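The alternatives were recomputed for each count and each gene. The number of cartilage genes called stayed within 1.5 times its value except in 8 cases on leaving out 1 library and in 4 cases under the other settings, which follow first. In KO day 14 against WT day 14 it was 1 with DESeq2 and 1 with the replicate block, against 0. For the interaction it was 1 with DESeq2, against 0, and in KO day 14 against KO day 7 it was 0 with only the groups compared, against 1. Leaving out 1 library gave 8 to 8 calls in WT day 7 against WT day 0, 7 to 9 in WT day 14 against WT day 0, 3 to 6 in WT day 14 against WT day 7, 3 to 6 in KO day 7 against WT day 7, 0 to 1 in KO day 14 against WT day 14, 1 to 2 in KO day 14 against KO day 7 and 0 to 0 for the interaction. Sox9 in KO day 7 against WT day 7 had an edgeR adjusted p of 0.0532 with upper-quartile scaling and 0.0641 without the filter. Over all genes, KO day 14 against WT day 14 had 337 calls, 759 with DESeq2 and 86 with only the groups compared, and the interaction 0 with edgeR and 190 with DESeq2. Leaving out 1 library gave 152 to 1672 calls in KO day 14 against WT day 14, 1440 to 2659 of 2802 in KO day 7 against WT day 7, 1693 to 2956 of 2962 in KO day 14 against KO day 7 and 0 to 11 for the interaction. Uncalled log2 fold changes changed sign with limma-voom, to -0.12 for Sox9 and -0.11 for Chad in KO day 14 against WT day 14, and to -0.67 for Col2a1, -0.14 for Col11a2 and -0.47 for Col9a1 in KO day 14 against KO day 7; the cause was not tested. Others changed sign on leaving out 1 library, between the lowest and highest values that follow. In WT day 14 against WT day 0, these were Col11a2 -0.204 to 0.675. In KO day 7 against WT day 7, these were Matn3 -0.395 to 0.393. In the interaction, these were Sox5 -0.258 to 0.000137, Sox6 -0.761 to 0.0537 and Col9a1 -2.04 to 0.178. In KO day 14 against KO day 7, these were Sox5 -0.102 to 0.134, Acan -0.392 to 0.172, Col2a1 -1.23 to 0.786, Col11a2 -0.763 to 0.497 and Col9a1 -1.46 to 0.619. In KO day 14 against WT day 14, these were Sox9 -0.388 to 0.237, Sox6 -0.0431 to 0.772, Col11a2 -1.09 to 0.564, Hapln1 -0.189 to 1.47 and Chad -0.109 to 0.382. All 100 group levels, counted over RLE and upper-quartile scaling, moved by less than 1 SD.

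Whether the replicate numbers pair the libraries was not settled. In their deviations, 40 same-numbered pairs correlated from -0.165 to 0.272, 14 of them over 0.1, and 7 of 20 libraries correlated best with their own number. Pairs of different numbers were not summarised beside these, so the check cannot exclude pairing. With the replicate block, the edgeR adjusted p was 0.0672 for Sox9 in KO day 7 against WT day 7, 0.0479 for Sox5 in KO day 14 against WT day 14 and 0.0269 for Sox6 in WT day 14 against WT day 7. Under the block the log2 fold change turned to 0.13 for Col2a1 in WT day 7 against WT day 0, to -0.014 for Sox9 in KO day 14 against WT day 14, and to -0.0843 for Col2a1, -0.0728 for Col11a2 and -0.16 for Col9a1 in KO day 14 against KO day 7.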

Other observations

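The authors' deposited table holds 13266 genes, with all 10 cartilage genes among them. The last comparison in the authors' deposited table is headed as KO day 14 against WT day 7, but its log2 fold changes equal the KO effect at day 14 minus the KO effect at day 7 for all 13266 genes, within 1e-06. At a false discovery rate below 0.05, the authors' deposited table calls 6 of the 10 cartilage genes higher in KO day 7 against WT day 7 and 0 in KO day 14 against WT day 14.

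Of 9 other lecticans, link proteins and aggrecan-cleaving enzymes tested, 6 rose and 2 fell at WT day 7 and 7 rose and 2 fell at WT day 14 against WT day 0, where 32.3% and 28% of all genes were called higher. Hapln4, a link protein gene known from brain, was higher by 4.09 ± 0.27 on the log2 scale at WT day 7 and by 4.26 ± 0.27 at WT day 14 against WT day 0 (SE, n = 4 per group; edgeR adjusted p = 2.96e-10 and 3.99e-10). Bcan, the brain lectican brevican, was higher by 2.71 ± 0.35 and 4.07 ± 0.36 (edgeR adjusted p = 1.47e-06 and 2.60e-08). Both genes started near the floor and stayed low. At WT day 0, day 7 and day 14, Hapln4 had 0.247 ± 0.0675, 4.24 ± 0.798 and 4.75 ± 0.737 CPM (SD, n = 4 each). Bcan had 0.556 ± 0.141, 3.69 ± 0.841 and 9.45 ± 4.21 CPM in these groups. In KO day 14 against WT day 14, Hapln4 was lower, at -0.99 ± 0.22 (edgeR adjusted p = 0.0279).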
